A study of Mus musculus with 6 samples.

Results

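The sites described here are Gli3 binding sites whose midpoint lies inside a protein-coding gene, close to a transcription start site (TSS) but more than 2 kb from it. A site was taken when it was on chromosomes 1 to 19 and its midpoint was more than 2 kb from the TSS of every annotated transcript, inside the body of a protein-coding gene, and at most 20 kb from the nearest TSS of a protein-coding transcript (a coding TSS). Of the 4114 sites of the list, 4028 were on these chromosomes, 2190 of them were more than 2 kb from every TSS, 1020 of those were inside a coding gene, and 402 of these were within 20 kb. They made up 9.77% of the list and 39.4% of the nonpromoter sites inside coding genes. The sites came from chromatin immunoprecipitation followed by sequencing (ChIP-seq), which recovers the DNA to which a protein is bound, in the cerebral cortex of wild-type mouse embryos at embryonic day 15, with 3 libraries made with a Gli3 antibody and 3 of input DNA. No other genotype or agent entered this experiment. The replicates were joined in 1 list of positions in the mm10 build (GRCm38), with no height, score or p-value, so that no error between embryos can be given and the depth is unknown. Intervals and tests below cover the counting error over sites only, and sites of the same gene are not independent of each other.

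Gli3 is a zinc finger transcription factor and the main repressor among the Gli proteins. Without a Sonic hedgehog (Shh) signal it is cut to a short form that keeps target genes silent, and the signal, passed on by the membrane protein Smoothened, prevents the cut. In the embryonic cortex Gli3 is made by the radial glia, the progenitors of neurons and later of glia. Gli proteins recognise a sequence of 9 bases, GACCACCCA, called the GLI core below.

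The exact GLI core was found in 65 of the 402 sites. The windows that follow hold 41 bases of the GRCm38 assembly around the core, or around the nearest match to it, read 5′ to 3′ on the strand given, with the core in capitals. The first set is shown because its host genes belong to the Hedgehog pathway itself. *Boc* and *Cdon* encode coreceptors for Shh, *Ptch1* its receptor, and *Gli2* the main activator of the family. *Boc* and *Cdon* had an exact core, whereas the windows of *Ptch1* and *Gli2* differ from it by A9T and A2C, counted from 1 at the 5′ end of the core.

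Boc, chr16:44552140-44552180, plus strand: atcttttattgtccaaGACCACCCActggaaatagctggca

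Cdon, chr9:35465113-35465153, minus strand: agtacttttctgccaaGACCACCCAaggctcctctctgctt

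Ptch1, chr13:63556544-63556584, plus strand: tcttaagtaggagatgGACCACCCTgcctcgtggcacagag

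Gli2, chr1:119033705-119033745, plus strand: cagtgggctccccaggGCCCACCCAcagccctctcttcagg

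The second set comes from genes of glial development and Fgf signalling. *Fgfr1* and *Fgfr3* encode receptors for fibroblast growth factors, *Nfib* and *Nfix* encode nuclear factor I proteins, and *Sox8* encodes a transcription factor of the SoxE group. The single *Fgfr3* site held both of its windows. The *Sox8* core was in the coding sequence of the gene, and the others were in introns.

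Fgfr1, chr8:25543148-25543188, minus strand: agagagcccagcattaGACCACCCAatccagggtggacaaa

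Fgfr3 a, chr5:33725979-33726019, minus strand: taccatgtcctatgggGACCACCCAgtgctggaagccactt

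Fgfr3 b, chr5:33726313-33726353, plus strand: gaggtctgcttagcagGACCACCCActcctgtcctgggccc

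Nfib, chr4:82697306-82697346, minus strand: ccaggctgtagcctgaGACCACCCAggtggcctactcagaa

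Nfix, chr8:84793239-84793279, minus strand: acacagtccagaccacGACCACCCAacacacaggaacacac

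Sox8, chr17:25568966-25569006, minus strand: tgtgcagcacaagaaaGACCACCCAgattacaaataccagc

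The third set is from genes with several sites, or from sites with more than 1 core. *Syt2* encodes a calcium sensor of synaptic vesicles, *Pld1* a phospholipase and *Tpcn1* an ion channel of endosomes. In *Pld1* the cores stand on opposite strands with 4 bases between them, so that the window shows the other core as its reverse complement.

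Syt2 a, chr1:134651589-134651629, minus strand: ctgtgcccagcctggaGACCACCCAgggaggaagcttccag

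Syt2 b, chr1:134698229-134698269, minus strand: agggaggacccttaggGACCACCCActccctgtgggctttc

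Pld1, chr3:28016910-28016950, minus strand: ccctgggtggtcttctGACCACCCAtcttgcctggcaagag

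Tpcn1 a, chr5:120570136-120570176, minus strand: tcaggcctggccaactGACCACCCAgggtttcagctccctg

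Tpcn1 b, chr5:120571201-120571241, plus strand: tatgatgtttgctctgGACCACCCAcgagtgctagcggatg

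One site stood apart from all of these. In intron 8 of *Gulo*, which encodes the last enzyme of vitamin C synthesis, a stretch of 266 bases held 11 exact cores in a tandem repeat, all on the strand opposite to the gene. Of the 10 steps from one core to the next, 5 were of 16 bases. The whole stretch is shown because it carries 11 of the 79 cores found.

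Gulo, chr14:65996232-65996497, plus strand: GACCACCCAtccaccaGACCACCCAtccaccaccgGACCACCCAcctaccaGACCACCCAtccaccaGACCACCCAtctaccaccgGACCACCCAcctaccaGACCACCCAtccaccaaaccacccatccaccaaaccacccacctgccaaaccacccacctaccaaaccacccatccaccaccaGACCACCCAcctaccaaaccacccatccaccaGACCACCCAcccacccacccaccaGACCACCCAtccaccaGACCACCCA

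The sites were spread over all 19 autosomes, from 6 on chromosome 19 to 39 on chromosome 4. Their median width was 1932.5 bp, and the range between the 25th and 75th percentiles was 1269.75 to 2896 bp. The narrowest were in *Gpld1* (349 bp), *Vps45* (373 bp) and *Tmem267* (377 bp), and the widest in *Zfp618* (10111 bp), *Pitpnm2* (7784 bp) and *Pmepa1* (7648 bp). The narrowest site of all thus still held a GLI core, and its centre was 7 bp from that of the core. The median distance to the nearest coding TSS was 8.51 kb. At the lower limit, the sites in *Ccdc80* and *Bcl9l* were 2008 and 2011 bp from a TSS, while those in *Zfp362* and *Cdh2*, at 1991 and 1989 bp, were left out. At the upper limit, the sites in *Clec16a* and *Prex1* were at 19894 and 19864 bp, and those in *Fam163b* and *Slc8b1*, at 20131 and 20233 bp, were left out. The limits thus cut through a continuous distribution. The whole site, and not only its midpoint, was more than 2 kb from every TSS in 329 of the 402. The others reached into the promoter window, and some covered a TSS. Distances, and the terms promoter and nonpromoter, thus refer to the midpoint of a site. No result was recomputed without the sites that reached into the window.

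The density of the sites was set beside the sequence that could have held them, that is, all autosomal bases that met the same rule. This sequence amounted to 307.6 Mb, 12.8% of the autosomes, and held 1.31 sites per Mb (exact Poisson interval 1.18 to 1.44). Deeper inside coding genes, more than 20 kb from a coding TSS, the density was 1.19 sites per Mb (618 sites, 1.10 to 1.29), and outside coding genes within 20 kb it was 1.17 sites per Mb (258 sites, 1.03 to 1.32). Within 2 kb of a TSS the density was 6.70 sites per Mb. Inside genes it was 1.71 sites per Mb from 2 to 4 kb (1.37 to 2.10) and 1.36 from 4 to 6 kb (1.05 to 1.75). It then lay between 0.946 and 1.57 sites per Mb in the 7 bins from 6 to 20 kb, with no steady fall. Outside genes it was 1.05 sites per Mb from 2 to 4 kb (0.721 to 1.49), an interval that overlaps that inside genes. Beyond the first bins, the density near a coding TSS was thus close to that far from one.

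**Figure D1:**
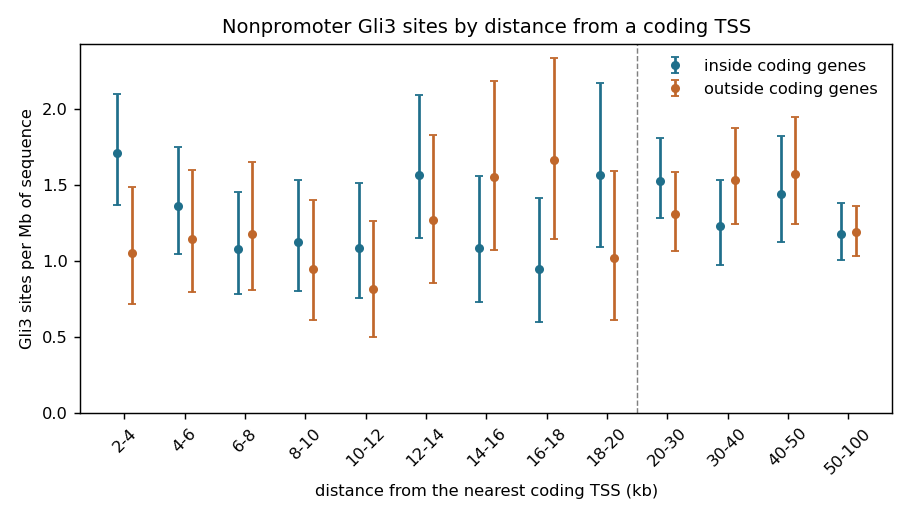
Gli3 sites per Mb of sequence (y axis) in bins of distance from the nearest coding TSS (x axis, kb) for nonpromoter sites inside coding genes (blue) and outside them (orange); bars are exact 95% Poisson intervals and the dashed line marks the limit of 20 kb. Inside genes the bin from 2 to 4 kb is the highest, at 1.71 sites per Mb, and the others lie between 0.946 and 1.57.

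Most sites were intronic. The midpoint was in an exon in 37 of the 402 sites (9.20%), beside 10.8% of the eligible sequence, with 13 in coding sequence, 1 in a 5′ UTR, 19 in a 3′ UTR and 4 in noncoding exons. The first intron of a coding transcript held 223 sites, 55.5% (Wilson interval 50.6 to 60.3%), beside 43.8% of the eligible sequence. The same was seen at both distances, with 63.2% of the 234 sites up to 10 kb from a coding TSS (56.9 to 69.2%) beside 49.3% of the sequence, and 44.6% of the 168 sites over 10 kb (37.3 to 52.2%) beside 36.7%. At the larger distance the lower end of the interval was only just above the share of the sequence. With the transcripts of the basic annotation set only, 47.8% of 429 sites were in a first intron (43.1 to 52.5%), beside 39.9% of the sequence eligible under that set. The site was downstream of its nearest coding TSS in 292 cases (72.6%), beside 73.1% of the eligible sequence, nearly the same share. The nearest coding TSS belonged to the gene that held the site in 365 cases (90.8%).

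The GC content of the sites had a median of 50.6%, and that of their flanks, regions of the same length that start 1 site length from each edge, 47.8%. The sites deeper inside genes had a median of 48.1%. Of the 402 sites, 177 (44.0%) were above the median of all autosomal sites, 51.4%, and of the 618 deep sites 150 (24.3%) were (odds ratio 2.45, two-sided Fisher's exact test, adjusted p = 3.95e-10 over 7 class comparisons). The difference was 19.8 percentage points (13.8 to 25.6). The sequence that could have held these sites was itself richer in GC than that of the deep sites, 43.7% against 41.8%. Against sites outside genes at the same distance, 39.1% of which were above the median, no difference was found (Fisher's exact test, adjusted p = 0.387, difference 4.88 points, -2.84 to 12.4). The sites were poor in CpG, with a median observed to expected ratio of 0.220, against 0.223 for the deep sites and 0.305 for all autosomal sites. In width, 48.5% were above the autosomal median of 2004.5 bp, against 43.2% of the deep sites (adjusted p = 0.290) and 48.8% of those outside genes (adjusted p = 1, Fisher's exact tests over the same 7 comparisons).

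The GLI core was found in 65 sites (16.2%, 12.9 to 20.1%), and in 16 of their 803 flanks (1.99%, 1.23 to 3.21%), with p = 3.27e-19 in a two-sided Fisher's exact test and an odds ratio of 9.49. Counted by length, the sites held 85.8 cores per Mb, or 73.96 without the *Gulo* site, and the flanks 8.69. A single core was present in 60 sites, 2 cores in 4 sites (among them those in *Pld1*, *Fgfr3* and *Tpcn1*), 11 in the *Gulo* site and none in 337. The core was thus frequent in the sites relative to their surroundings but absent from most of them. Looked at from the sequence, 79 of the 2303 exact cores in the eligible sequence were inside a site (3.43%, 2.76 to 4.25%), against 2.74% in the sequence of the deep sites (2.24 to 3.36%), 3.04% outside genes (2.30 to 4.02%) and 7.21% within 2 kb of a TSS (6.24 to 8.31%).

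**Figure D2:**
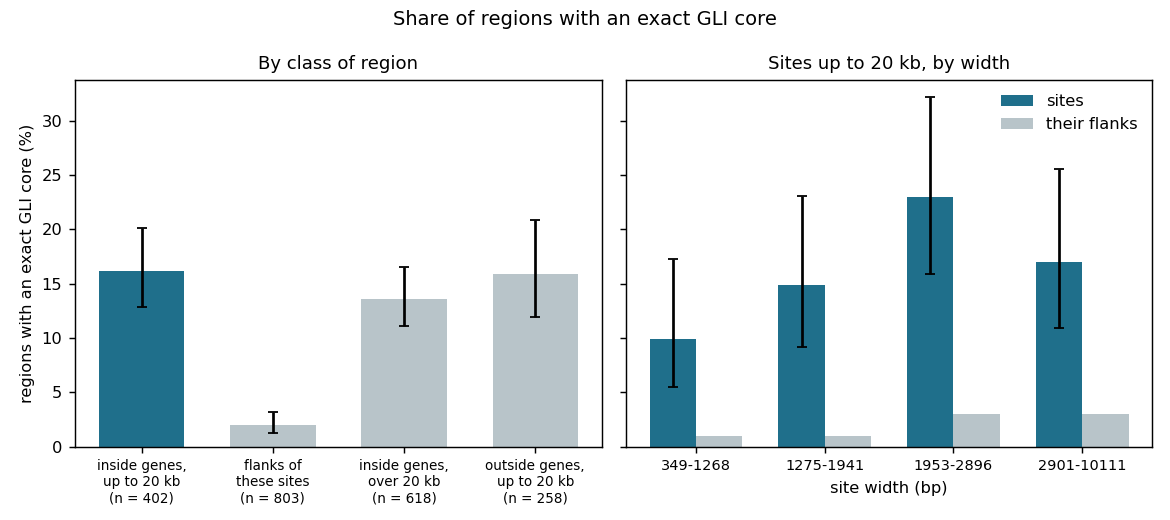
Percent of regions with at least 1 exact GLI core (y axis), on the left for sites inside genes up to 20 kb from a coding TSS, their flanks, deeper sites inside genes and sites outside genes, and on the right for the first of these and their flanks in 4 classes of width (x axis, bp); bars on the columns are 95% Wilson intervals. The 3 classes of sites are at 13.6 to 16.2% and the flanks at 1.99%, and in every class of width the flanks are at 3% or less.

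No difference in this share was found between the classes of sites. The core was present in 84 of 618 deep sites (13.6%), a difference of 2.58 percentage points (-1.82 to 7.21, adjusted p = 0.387), and in 41 of 258 sites outside genes (15.9%), a difference of 0.278 points (-5.66 to 5.84, adjusted p = 1, two-sided Fisher's exact tests over the same 7 comparisons). The intervals leave room for differences of up to 7.21 points. By width, the core was present in 9.90% of the sites from 349 to 1268 bp, in 14.9% from 1275 to 1941 bp, in 23.0% from 1953 to 2896 bp and in 17.0% of those wider. The share was lowest in the narrowest sites, but these intervals overlap. Within the 402 sites, the share was 14.96% up to 10 kb from a coding TSS (35 of 234) and 17.9% beyond (30 of 168, Fisher's exact test, p = 0.493). It was 14.8% where the host gene also had a promoter site (17 of 115) and 16.7% where it had none (48 of 287, p = 0.764, two-sided Fisher's exact tests).

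Of the 79 cores, 72 were in introns, 5 in 3′ UTRs and 2 in coding sequence, those of *Sox8* and *F12*. The median distance of a core from the centre of its site was 351 bp, or 398.25 bp for the 68 cores outside the *Gulo* site. When each site was divided into 3 equal parts, 33 of 79 cores (41.8%) were in the central one, against 33.3% for an even spread (exact two-sided binomial test, p = 0.121). Without the *Gulo* site the number was 24 of 68 (35.3%, exact binomial test, p = 0.797). With 1 mismatch allowed and the *Gulo* site left out, 44.6% of the matches were central (exact binomial test, p = 4.75e-07). The first 8 bases of the core, again without *Gulo*, gave 41.6% (exact binomial test, p = 0.0908). The core was read on the sense strand of the host gene in 25 of 79 cases (31.6%, 22.4 to 42.5%, exact two-sided binomial test, p = 0.00147), but all 11 cores of *Gulo* were antisense. Without that site it was 25 of 68 (36.8%, exact binomial test, p = 0.0385), and after adjustment over the 4 tests made within these sites the p-value was 0.154. The lean towards the antisense strand thus rested in part on 1 repeat. In the sites up to 10 kb, of which 35 held a core, 45.9% of the cores were sense (exact binomial test, p = 0.743). These cores are too few to tell whether the lean is absent there.

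**Figure D3:**
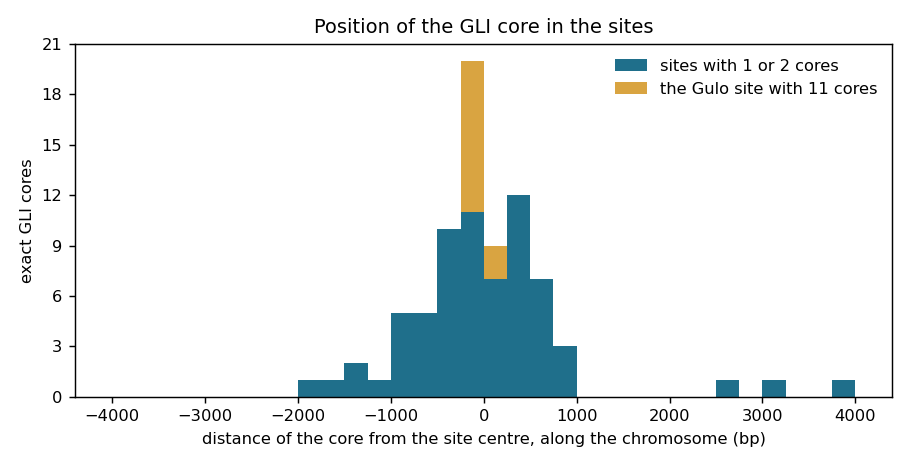
Number of exact GLI cores (y axis) by distance from the centre of the site along the chromosome (x axis, bp, bins of 250 bp), for the 68 cores of sites with 1 or 2 cores (blue) and the 11 of the *Gulo* site (yellow). The cores spread widely around the centre, with a median distance of 398.25 bp without the *Gulo* site.

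To ask which short sequences set the sites apart from their flanks, every word of 8 bases was counted together with its reverse complement, 32896 in all. Of these words, 24 were more frequent in the sites, 0.0730% of those tested, and 7 less frequent (two-sided Fisher's exact test, Benjamini-Hochberg adjusted over all words). The 7 less frequent words all held more A and T than G and C. The sites were richer in GC than the flanks, and how far this bears on the words was not tested. The leading word was the first 8 bases of the core, GACCACCC, present in 95 sites (23.6%) and 55 flanks (6.85%, Fisher's exact test, adjusted p = 3.16e-11), and the next was the last 8, ACCACCCA (27.4% and 11.8%, adjusted p = 7.45e-07). CCACCCAG (35.1% and 18.1%), GCCACCCA (29.6% and 15.2%), AGACCACC (16.7% and 6.48%), GCCCACCC (26.6% and 13.9%) and GGCCACCC (22.4% and 11.6%) overlap the core or are near matches to it. The other leading words were CTGGCAGC (28.4% and 14.4%), AGCCAGCA (28.4% and 16.6%), and CAGGCTGC and GCCTGGCA (each 30.1% and 18.2%). Against the deep sites 0 words differed in either direction by the same test, 0% of those tested, with 2564 at an unadjusted p below 0.05 and a lowest adjusted p of 0.0954. The number of words more frequent in the sites depended on the limits and the annotation, and was 12 with an upper limit of 10 kb, 62 with 50 kb, 120 with the basic transcripts and 1074 with a lower limit of 1 kb. GACCACCC was in 20.6% of the deep sites.

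Of 11 motifs of other factor families, each searched as the letters given on both strands, 2 were more frequent in the sites than in the flanks. The E-box CAGCTG, bound by many basic helix-loop-helix proteins, was in 74.6% of the sites and 64.5% of the flanks (Fisher's exact test, adjusted p = 0.00222). The nuclear factor I motif TTGGCA was in 73.9% and 62.8% (adjusted p = 0.00114, two-sided Fisher's exact tests adjusted over the 11 motifs). Both are short and common. The sites are richer in GC than the flanks, and whether this bears on the 2 motifs was not tested. No difference from the flanks was found for the E-boxes CAGATG (80.3% and 77.96%) and CACGTG (28.1% and 29.4%), the homeobox motif TAATTA (38.1% and 36.5%), the SP box GGGCGGGG (16.7% and 15.2%), the KLF box GGGCGTGG (7.46% and 9.71%), the SOX motif ACAATGG (20.9% and 22.5%), the POU octamer ATTTGCAT (10.9% and 8.47%), the TEAD motif GGAATGT (23.1% and 26.8%) and the AP-1 motif TGANTCA (43.0% and 43.1%). Against the deep sites, TAATTA was less frequent, at 38.1% against 49.0% (odds ratio 0.639, Fisher's exact test, adjusted p = 0.00696). This motif has no G or C, and the deep sites were lower in GC, a relation that was not tested. The other 10 motifs did not differ from the deep sites at an adjusted p below 0.05.

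**Figure D4:**
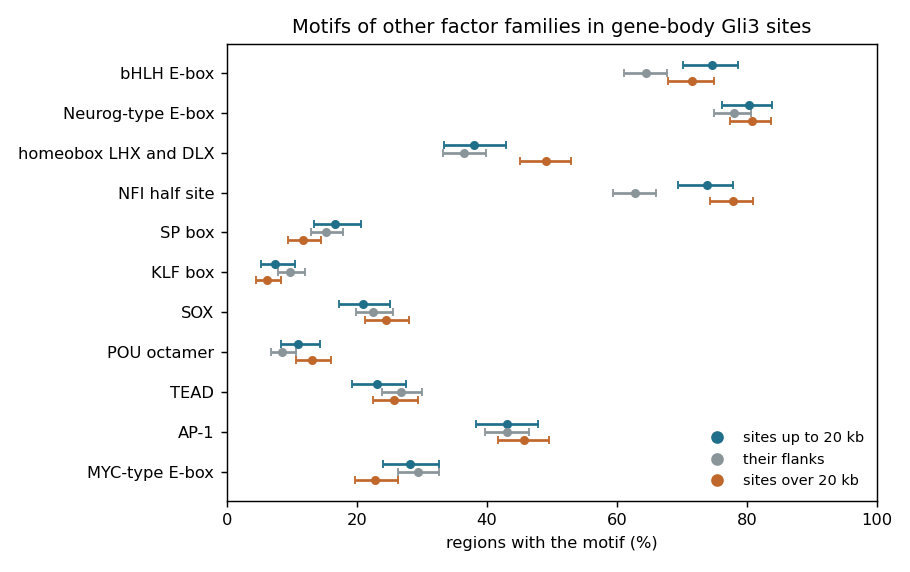
Percent of regions (x axis) with each of 11 motifs (y axis) among the 402 sites (blue), their 803 flanks (grey) and the 618 deeper sites inside genes (orange), with 95% Wilson intervals. The basic helix-loop-helix E-box and the NFI motif are higher in the sites than in the flanks, and the homeobox motif is lower than in the deep sites.

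The 402 sites were assigned to 358 host genes, 1.96% of the 18267 coding genes with any eligible sequence. Of these, 324 genes held 1 site, 28 held 2, 4 held 3, 1 held 4 and 1 held 6. The host genes had a median length of 69.5 kb over the sites. In 17 sites the midpoint was inside 2 coding genes, and the gene with the nearer TSS was then taken. The annotated spans of *Fgfr2* (2.96 Mb) and *Gm20388* (4.43 Mb) run over many other genes, and 3 sites had one of them as their only host. Without these spans 399 sites remained. A promoter site was present at the host gene of 115 sites (28.6%), and at the host gene of 149 deep sites (24.1%, difference 4.497 points, -0.986 to 10.1, Fisher's exact test, adjusted p = 0.290). Of all coding genes with eligible sequence, 8.88% had a promoter site, but that is a share of genes and not of sites. Another Gli3 site of any kind was within 10 kb of 78 sites (19.4%), and the median distance to the nearest was 52.0 kb.

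Among 19 genes of the Hedgehog pathway, 4 held a site, beside the 1.96% of all coding genes. *Ptch1* had 3, all in intron 2 of the transcript with the longest coding sequence, by which introns are numbered here, at 63552562 to 63553963, 63554203 to 63555415 and 63555886 to 63557171 on chromosome 13, and 7.80 to 11.1 kb from its TSS. They were 1402, 1213 and 1286 bp wide, neighbours were 1.55 and 1.72 kb apart, and none had an exact core, while only the last had a match with 1 mismatch. The *Boc* site (44551546 to 44554519 on chromosome 16, 2974 bp) was in intron 1, 5.87 kb from the TSS. The *Cdon* site (35464042 to 35465478 on chromosome 9, 1437 bp) was in intron 7, 7.28 kb from the nearest coding TSS, and held 1 exact core and 2 matches with 1 mismatch. The *Gli2* site (119033233 to 119035322 on chromosome 1, 2090 bp) was in intron 1, 19.1 kb from the TSS. *Ptch1* and *Gli2* also had a promoter site, and *Boc* and *Cdon* had none. The ligand *Shh*, *Smo*, *Sufu*, *Gli1*, *Gli3* and the other genes of the list held no site of this kind.

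Glial genes had 5 hosts among 16. These were *Nfix* with 3 sites, of which 1 held a core, and *Sox8*, *Nfib*, *Fgfr3* and *Aldh1l1*, a marker of astrocytes, with 1 each. The *Sox8* site was 6567 bp wide and its core was 2738 bp from its centre. The *Nfib* site was narrow, 897 bp, 8.58 kb from the TSS, with the core 151 bp from the centre. The *Fgfr3* site of 1457 bp was 2.58 kb from the nearest coding TSS, and 1 of its 2 cores was 17 bp from its centre. *Aldh1l1* had no core. Of the Fgf pathway, 3 of 15 genes were hosts: *Fgfr3*, *Fgfr1*, whose site of 4054 bp was 11.4 kb from the nearest coding TSS, and by annotation *Fgfr2*. The *Fgfr2* site lay within the 2.96 Mb span, and its nearest coding TSS was that of *Cpxm2*, 12.6 kb away.

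Of 16 cortical progenitor factors, 3 were hosts, each with 1 site. They were *Sox9*, which is needed for gliogenesis (3285 bp, 2.40 kb from the TSS), *Dmrta2*, a factor of the dorsal telencephalon (2344 bp, 2.88 kb), and *Zbtb20*, a repressor expressed in progenitors and astrocytes (814 bp, 2.19 kb). None had an exact core. Of 18 ventral and interneuron factors, among them *Dlx2*, *Gsx2* and *Nkx2-1*, 0 held such a site (0 to 17.6%). Of 23 projection neuron factors, *Bcl11a* and *Mef2c* did. Of 21 genes of the BMP and TGF-beta pathway 0 did (0 to 15.5%).

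In the Notch pathway 2 of 16 genes were hosts, the ligand *Jag1* with 2 sites in its intron 2 and the coactivator *Maml3*. In the Wnt pathway 3 of 28 were, the ligand *Wnt7b*, the receptor *Fzd8* with 2 sites, and *Axin2*, a feedback inhibitor. The *Fzd8* gene has no intron, and its sites were in the coding sequence and the 3′ UTR. Of 16 genes of the G1 phase, *Ccnd2*, a D-type cyclin, and *Mycn* held 1 each. The *Mycn* site was 6738 bp wide and its midpoint was 2976 bp from the nearest TSS, so that the site itself covered that TSS. It also reached past the 3′ end of the gene. Of 30 axon guidance genes *Ephb2* and *Sema6a* held 1 each. None of the sites in these 4 lists had an exact core. The lists do not hold every gene of a pathway: *Wnt5b*, a Wnt ligand outside the list, had a site of 1913 bp with 1 exact core, 11.03 kb from the nearest coding TSS, which was that of *Fbxl14*.

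Among the corepressor genes, *Tle3*, of the Groucho family, held 1 site, which had no exact core. *Foxo6*, a forkhead factor of the brain, held 4 in its only intron within a gene of 20.3 kb, with midpoints 2.69 to 18.2 kb from the TSS and none with an exact core. *Syt2* and *Plekha6* held 3 each, with a core in 2 and in 0 of them, and neither had a promoter site.

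**Figure D5:**
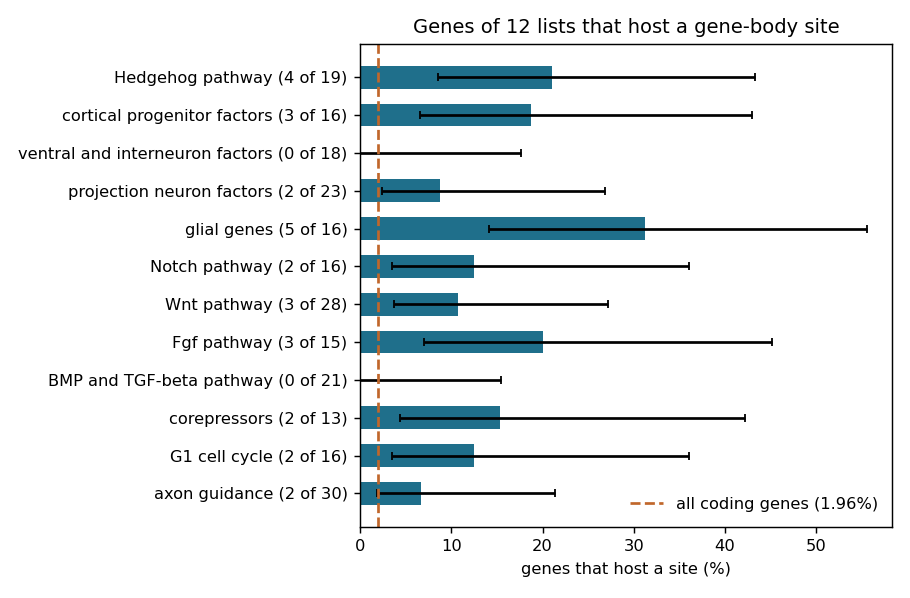
Percent of the genes of each of 12 lists that host a site (x axis), with 95% Wilson intervals and the numbers of host genes and of genes with eligible sequence beside each name; the dashed line is the share of all coding genes, 1.96%. The point value is above the line in 10 lists and 0 in the other 2, and all intervals are wide.

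Over the 12 lists, with each gene counted once, 27 of 229 genes held a site (11.8%, 8.23 to 16.6%), beside 1.96% of all coding genes. The lists were drawn up with earlier results of these data known, so that this is a description and not a test. Per Mb of eligible sequence, without *Fgfr2*, the list genes held 6.997 sites, beside 1.31 over all. By list, the values ran from 0 to 18.7 sites per Mb, the highest for the glial genes, with 17.5 for the Hedgehog pathway, 2.46 for the projection neuron factors and 2.17 for axon guidance. With 0 to 7 sites behind each list, their order is not firm.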

How the data were processed

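The deposited file is a list of positions, per the file headers made by the authors from paired reads (85 bases from each end) with a repeat filter, bowtie2 to mm10 and an irreproducible discovery rate (IDR) analysis that joined the replicates, of which the optimal set was kept. The submitters' processing notes name Bowtie2, SAMtools and MACS2 without versions. The thresholds of peak calling and IDR are not given in the sources used here, and they set the number and width of the sites. The list has 4 columns and no count, so depth is unknown. Its peaks are numbered from 1 to 4114 without a gap, but the study's text states another number of sites, and all shares here refer to the list as deposited.

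Sites were assigned by midpoint to GENCODE M21, and sequence came from GRCm38. A site in 2 coding genes went to the gene with the nearer TSS. Flanks of 1 site length started 1 site length from each edge. Matches were searched on both strands. Shares of regions count each region once, whereas the numbers, densities, positions and strands of cores count every match. Shares were compared with two-sided Fisher's exact tests, core positions with exact binomial tests, and families adjusted with the Benjamini-Hochberg method. Intervals are Wilson intervals at 95%, Newcombe intervals for differences and exact Poisson intervals for densities. The counting was tested on simulated data. The members, the gene lists and the tests were chosen with earlier results of these data known. Named genes were the hosts among 12 gene lists, hosts of at least 3 sites, sites with 2 or more cores, and those at the limits of width and distance. Named words were the 10 with the lowest p, with a tie. A few genes within this rule are left out of the report. *F12*, *Cpxm2*, *Wnt5b* and *Fbxl14* were named after their values were seen. Alternatives changed the TSS set, the distance limits, the part of the site searched, the match, the flanks, the joining of sites and the sites per gene. Leaving out the *Gulo* site, alone or with another setting, and the longest gene spans was chosen after seeing the data. Sequence on chromosome 18 and in UTRs is not shown. Sequence was read with pysam 0.24.0 and samtools 1.23.1, and tests were run with scipy 1.17.1 and numpy 2.4.6 under python 3.11.15.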

Additional observations from a re-analysis of the deposited data

How the results depend on the processing

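The ChIP and input libraries could not be paired because the replicates were joined in 1 list. For the same reason no replicate could be left out and no stricter peak threshold applied. Sites and flanks were compared as separate regions, and the pairing of each site with its own flanks was not used. The excess of GLI cores over the flanks held under all 14 alternatives (odds ratio 2.90 to 12.2, Fisher's exact test, highest p = 0.00675), and the higher GC content than in deep sites under all 9 (2.38 to 3.07). The number of sites was 559 with a lower limit of 1 kb, 234 with an upper limit of 10 kb, 686 with 50 kb, 487 with coding TSSs only and 358 with 1 site per gene. The first-intron share was 63.2% with 10 kb, 45.5% with 50 kb and 47.8% with basic transcripts. The sense share of cores lost its call with 10 kb (45.9%, p = 0.743) and in the central 200 bp (22.2%, p = 0.1797, exact binomial tests). The central share of cores passed the test with 1 mismatch (45.9%), with the 8-base word (45.5%), with 50 kb (45.5%) and with coding TSSs (44.9%), all with the *Gulo* repeat included. Without that site it passed with 1 mismatch (44.6%, p = 4.75e-07, exact binomial test), but not with the 8-base word (41.6%), 50 kb (41.8%) or coding TSSs (39.7%).

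Words above flanks numbered 783 with 1 kb, 2 with 10 kb, 107 with 50 kb, 74 with coding TSSs, 46 with basic transcripts, 14 with whole sites inside the gene, 0 in the central 200 bp, and 263 against flanks away from sites and TSSs. Words above deep sites numbered 1074, 12, 62, 3 and 120 under the first 5 of these, and 10 with sites joined within 1 kb. Motifs above flanks fell to 1 with 10 kb, and motifs above deep sites rose to 3 with 1 kb, 2 with basic transcripts and 1 with 50 kb, with coding TSSs and with joined sites. The counts of words thus depend strongly on the limits. Calls that appeared against deep sites were of width with 1 kb (odds ratio 1.55) and 50 kb (1.499) and of host promoter sites with coding TSSs (1.41). One appeared for GC content against sites outside genes, with basic transcripts (1.505).

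Odds ratios that were not called crossed 1 as follows, none of them past the threshold. For the core against deep sites, 0.965 with 1 mismatch and 0.705 in the central 200 bp. For the core against sites outside genes (1.02), 1.00 with 1 kb, 0.915 with 10 kb, 0.994 with 50 kb, 0.958 with coding TSSs, 0.767 in the central 200 bp, 0.991 with joined sites, 0.945 with basic transcripts and 0.961 with whole sites. For width against the same (0.987), 1.06 with 1 kb, 1.00 with 1 site per gene, 1.18 with 10 kb, 1.05 with 50 kb, 1.06 with joined sites and 1.11 with basic transcripts. For the core by host promoter site (0.864), 1.12 with 1 kb, 1.47 with 1 mismatch, 1.14 with 10 kb and 1.25 in the central 200 bp, where the core by distance was 1.44. The core by distance could not be computed with an upper limit of 10 kb. Of 186 alternative values, 126 kept their direction and side of the threshold, or their size. The cause of these changes was not tested.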

Other observations

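The bases beside the core were compared between the 68 cores of these sites outside *Gulo* and the 2224 exact cores of the eligible sequence that were in no site, a comparison chosen after the data were seen and given without a test. Every base was looked at in 6 positions on each side of the core, and only a few of these comparisons are given. A G stood 5 bases after the core in 28 of the 68 (41.2%, Wilson interval 30.3 to 53.0%) and in 21.1% of the cores in no site. A G stood 2 bases after the core in 36.8% (26.3 to 48.6%) and 22.5%. A C stood just before the core, which makes a CpG, in 1 of 68 (1.47%, 0.260 to 7.87%) and in 5.26%. The base just before the core was A in 36.8% and 35.8%.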
